A study of Mus musculus with 18 samples.

Results

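This comparison follows wild-type (WT) mouse oocytes from the germinal vesicle stage (GV) to metaphase I (MI). It rests on 6 of the 18 libraries of the study, namely WT GV replicates 1 to 3 and WT MI replicates 1 to 3, all labelled LSM14B_WT. Genes entered when their level was at least 1 FPKM, a read count divided by exon length and by depth, in 3 or more of the 6, which 8798 of 27874 genes did. The whole study also holds oocytes of Lsm14b-/- mice (KO) and a later stage denoted MII, collected 14 h after human chorionic gonadotropin, with 3 libraries in each of its groups. Each library was made from 15 oocytes with oligo(dT)-primed Smart-seq2. The labels do not say whether replicates came from separate mice, how long MI oocytes had been in culture, or the age and strain of the mice, so p-values measure the spread between these samples, which may be technical.

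A fully grown oocyte is arrested in prophase of the first meiotic division, with its nucleus, the germinal vesicle, intact. When the arrest is released, CDK1 with cyclin B becomes active, the nucleus breaks down and the chromosomes gather on the first spindle. Transcription in the nucleus is silent over this period, so the stock of maternal mRNA from nuclear genes is changed by decay and by lengthening or shortening of poly(A) tails. An oligo(dT) primer reads an mRNA through its tail, and FPKM is a share of a library, so less RNA of a kind and a shorter tail cannot be told apart here, and neither can less RNA per oocyte and a smaller share.

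Depth recovered from the FPKM was 14577124 to 17340970 gene reads for these libraries, in which 7986 to 9795 genes stood at 1 FPKM or more. Along the first principal component, with 56.2% of the variance, GV libraries scored -31.2 to -18.8 and MI libraries 6.7 to 45.1. MI replicate 3 lay nearest to GV, and its correlation across genes with GV replicate 1 (0.965) was as high as that with MI replicate 1 (0.963). Oocyte markers dominated: 14 genes such as Gdf9, Zp3 and H1foo together gave 46832 to 48144 FPKM at GV and 36614 to 43591 at MI. Of 20 cumulus and granulosa markers 3 passed the level filter, with summed levels of 7.76 to 14.8 FPKM at GV and 6.36 to 25 at MI and Foxl2 at 0. Of 12 listed markers of theca, stroma and endothelium, 1 passed (sums 3.19 to 4.39 and 4.65 to 6.62 FPKM, with Col1a1, Col1a2 and Cdh5 at 0), and of 10 blood markers none did (sums 0.524 to 0.628 and 1.06 to 30.2, with Hba-a1 and Hbb-bs at 0). The highest blood sum was that of MI replicate 2, where Lyz2, a lysozyme gene of myeloid cells, stood at 27.5 FPKM. The part of these other cell types in the results was not tested.

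From GV to MI, 622 genes rose and 292 fell, which is 7.07% and 3.32% of those tested (10.4% in either direction, limma on log2(FPKM + 1), Benjamini-Hochberg adjusted p under 0.05). Most changes were moderate: 371 of the rises and 212 of the falls were at least 2-fold, and only 5 rises and 12 falls at least 4-fold. The 3 MI values lay wholly above the 3 GV values in 2486 genes (28.3%) and wholly below in 639 (7.26%), and 891 of the 914 called genes were among these. The median change of all genes was 0.24 on the log2 scale as deposited. It was -0.005 after median-of-ratios scaling and 0.03 after quantile normalization, with which 219 genes rose and 580 fell (2.49% and 6.59%), or 236 and 441 (2.68% and 5.01%). The share of rises among the calls was thus 68.1% as deposited, 27.4% with median-of-ratios and 34.9% with quantile scaling, and 181 rises and 252 falls held under all 3. The balance of rises and falls therefore depends on the scale. Group medians below are to be read against 0.24, and rises and falls in a group against 7.07% and 3.32% of all genes. With median-of-ratios scaling, such counts are to be read against 2.49% and 6.59%.

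Single libraries also moved these counts. Rises and falls numbered 27 and 55 without GV replicate 3, 46 and 111 without MI replicate 1, 58 and 255 without MI replicate 2, 167 and 214 without GV replicate 2, 450 and 176 without GV replicate 1, and 1591 and 299 without MI replicate 3. In all, 17 rises and 48 falls held without each library in turn. With no level filter, 24321 genes were tested and none passed in either direction by limma (lowest adjusted p = 0.231, with 3457 genes at an unadjusted p under 0.05 against 2773 of the 8798). Of the 99 called genes that the naming rule for large changes and list members selects, most of which are named below, 26 held without each library, and calls ended without GV replicate 3 in 71, MI replicate 1 in 56, MI replicate 2 in 48, GV replicate 2 in 37, GV replicate 1 in 18 and MI replicate 3 in 4. For such genes the highest adjusted p over these omissions is given, in most cases with its library.

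**Figure D1:**
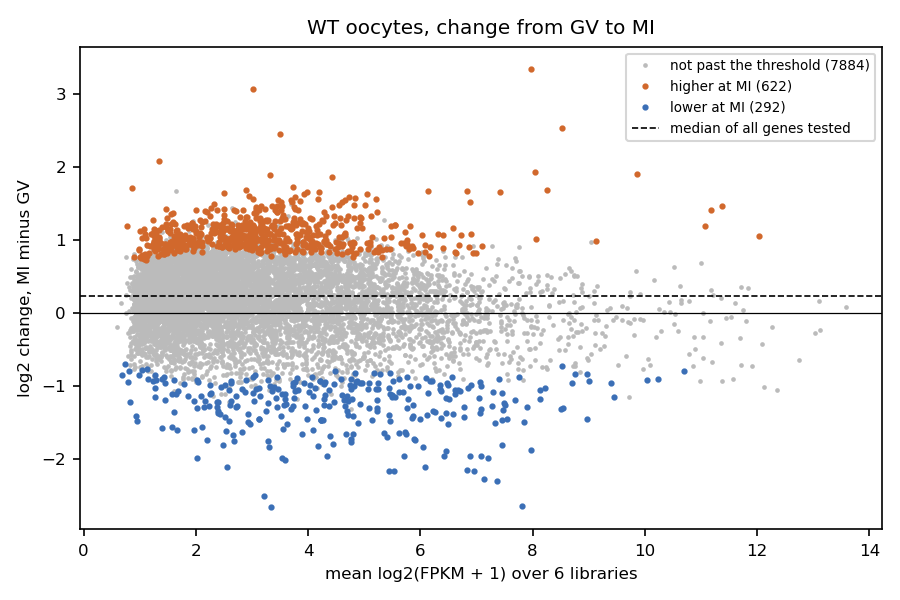
Change from GV to MI in WT oocytes (log2, MI minus GV) against the mean level over the 6 libraries (log2(FPKM + 1)), 1 point per gene tested. The 622 rises and 292 falls lie at the upper and lower edges of the cloud, where they mix with genes that did not pass, and the dashed line marks the median change of 0.24.

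The 12 falls described first are the largest among named genes with a mean of at least 5 FPKM, separate groups and a call that held without each library. Genes with predicted or clone symbols, which include the 3 largest falls of all, and genes whose call was lost, such as Rpl19, are left out of them by this rule. Bud31, a splicing factor, stood at 367, 315 and 416 FPKM in GV replicates 1 to 3 and at 55.8, 138 and 50.4 in MI replicates 1 to 3. The groups did not overlap, and MI replicate 2 kept the most. The fall was 2.30 on the log2 scale, with an SE of 0.32 (limma adjusted p = 0.00321). Cpsf4l, a relative of the CPSF subunit that binds the polyadenylation signal, went from 328, 347 and 253 FPKM to 35.5, 118 and 58.4 (log2 -2.27, SE 0.34, adjusted p = 0.00344). Stx5a, a SNARE of the Golgi, went from 257, 323 and 209 FPKM to 31.3, 84.8 and 71.5 (log2 -2.15, SE 0.32, adjusted p = 0.00344). In both genes MI replicate 1 was the lowest and MI replicate 2 the highest MI library, and no MI value reached a GV value.

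Fcf1, which takes part in the processing of ribosomal RNA, stood at 138, 103 and 190.0 FPKM and then at 24.8, 53.8 and 23.4 (log2 -2.11, SE 0.32). Psmc2, an ATPase of the proteasome cap, was far less abundant but changed as much, from 23.0, 19.3 and 24.0 FPKM to 3.95, 8.76 and 3.10 (log2 -1.98, SE 0.31). G6pdx, the entry enzyme of the pentose phosphate pathway, went from 286, 407 and 211 to 48.5, 122 and 66.1 FPKM (log2 -1.98, SE 0.32). The 3 genes had adjusted p = 0.00344, 0.00403 and 0.0056, and MI replicate 2 was again the highest MI library in each. Tor1a, the torsin ATPase of the endoplasmic reticulum and nuclear envelope, was even across GV libraries at 272, 257 and 267 FPKM and stood at 49.6, 118 and 53.2 at MI (log2 -1.95, SE 0.29, adjusted p = 0.00344). Timm17a, part of the import channel of the mitochondrial inner membrane, had a log2 change of -1.88, and Umodl1, a uromodulin-like membrane protein, of -1.87.

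Gja4 encodes connexin 37, the gap junction protein through which oocyte and granulosa cells are coupled. It stood at 351, 431 and 231 FPKM at GV and at 52.4, 179 and 85.4 at MI, with no overlap (log2 -1.80, SE 0.36, adjusted p = 0.0124). Oser1, an oxidative stress responsive gene, was even within its groups, at 109, 101 and 109 FPKM and then 22.7, 37.8 and 36.2 (log2 -1.72, SE 0.25, adjusted p = 0.00343). Rrn3, an initiation factor of RNA polymerase I, went from 82.1, 95.5 and 54.5 to 32.3, 14.8 and 23.8 FPKM (log2 -1.70, SE 0.30, adjusted p = 0.00677). Rrn3 was the only one of these 12 genes in which MI replicate 1, not MI replicate 2, was the highest MI library. Over all 292 falls, MI replicate 2 was the highest MI library in 205, MI replicate 3 in 63 and MI replicate 1 in 24. In all, 22 falls met the naming rule. Beside the MI means of 81.6 ± 49.4, 70.7 ± 42.7 and 62.5 ± 27.9 FPKM (SD, n = 3), Bud31, Cpsf4l and Stx5a stood at 4.75 ± 0.897, 1.14 ± 0.356 and 4.17 ± 0.570 in WT MII oocytes, while Tor1a stood at 73.5 ± 38.3 at MI and 75.5 ± 16.9 at MII.

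By the same rule 10 rises qualified, of which 5 were mitochondrial transcripts. The predicted genes Gm23935 and Gm10222, left out by it, had log2 changes of 3.34 and 3.07, above that of any of the 10. mt-Nd2, which encodes a subunit of respiratory complex I, stood at 177, 91.9 and 215 FPKM in the GV libraries and at 1154, 1134 and 528 in the MI libraries. MI replicate 3 was the lowest MI library and still above every GV library (log2 2.53, SE 0.34, adjusted p = 0.00321). The ribosomal RNA of the small mitochondrial subunit, mt-Rnr1, was even at GV (502, 482 and 463 FPKM) and spread at MI (3176, 1887 and 991; log2 1.91, SE 0.33, adjusted p = 0.00677). mt-Rnr2, its partner of the large subunit, went from 1539, 1801 and 1468 to 5254, 4962 and 3325 FPKM (log2 1.47, SE 0.26, adjusted p = 0.00745). mt-Nd6 and mt-Nd5, further complex I subunits that overlap on opposite strands, rose by 1.67 and 1.53 on the log2 scale; as the strand of the counting is not given in the sources used here, their reads cannot be told apart where they overlap.

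The nuclear genes among these 10 rises were of lower abundance. Hist1h1a, a linker histone, stood at 7.28, 7.08 and 4.84 FPKM and then at 28.6, 29.5 and 14.5 (log2 1.72, SE 0.30, adjusted p = 0.00677). Nufip2, an RNA-binding partner of FMRP, was nearly constant at GV (8.07, 7.78 and 7.81 FPKM) and reached 33.8, 27.8 and 21.2 at MI (log2 1.66, SE 0.25, adjusted p = 0.00344). Daam1, a formin that assembles actin filaments, went from 12.3, 11.1 and 12.5 to 46.7, 31.3 and 28.0 FPKM (log2 1.45, SE 0.25, adjusted p = 0.00677). GV values were close together in Nufip2 and Daam1, while Hist1h1a was lower in GV replicate 3. In all 3 every MI value lay above the GV values, which the rule required. Srrm1, a splicing coactivator, and Mia2, which helps cargo leave the endoplasmic reticulum, rose by 1.30 and 1.24. MI replicate 3 was the lowest MI library in 9 of these 10 genes and in 568 of all 622 rises, and MI replicate 1 the highest in 8 and in 504.

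**Figure D2:**
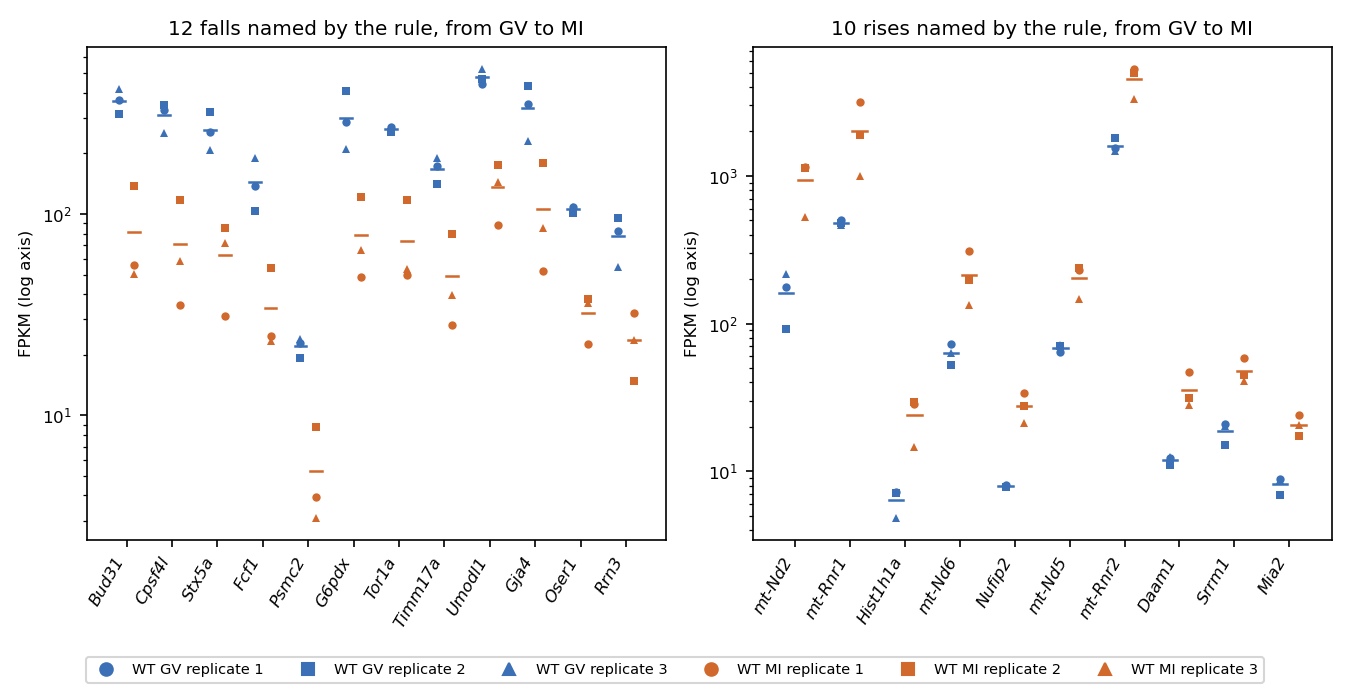
FPKM (log axis) of the 12 falls and 10 rises named by the rule in each of the 6 WT libraries, with symbols for replicates and short lines for group means. GV and MI points are separate because the rule required it, and MI replicate 2 (square) is the highest MI point in 11 of the 12 falls.

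Dormant mRNAs are stored with short tails at GV, then polyadenylated and translated during maturation. The list held 30 such genes, all of which passed the level filter. Of these, 2 rose, 1 fell and 27 did not pass, where 7.07% of all genes rose and 3.32% fell. The median change was 0.36 against 0.24 for all genes (0.06 against -0.005 with median-of-ratios scaling). Mos, the kinase that starts the MAPK cascade of the egg, stood at 252, 267 and 218 FPKM at GV and at 231 in each MI library (log2 -0.09, adjusted p = 0.822). Ccnb1, cyclin B1, stood at 438, 412 and 536 and then at 297, 403 and 332 FPKM (log2 -0.43, adjusted p = 0.231). Its MI values lay just below its GV values, and the change did not pass. Btg4, which recruits the CCR4-NOT deadenylase to mRNAs, stood at 2743, 2150.0 and 4379 and then at 4044, 3797 and 3524 FPKM, with overlapping groups (log2 0.36, adjusted p = 0.410).

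Plat, tissue plasminogen activator and a classical dormant mRNA, was the member that fell. It stood at 547, 675 and 525 FPKM at GV and at 204, 293 and 437 at MI, without overlap (log2 -0.96, SE 0.28, adjusted p = 0.0429, or 0.172 without MI replicate 1). The members that rose were Cnot6l, a catalytic deadenylase of CCR4-NOT (25.9, 16.0 and 14.6 to 90.0, 50.2 and 32.5 FPKM, log2 1.49, adjusted p = 0.0191, or 0.0897 without GV replicate 3), and Dcp2, the catalytic subunit of the decapping complex (4.91, 4.52 and 4.86 to 22.0, 14.3 and 9.63 FPKM, log2 1.43, adjusted p = 0.0129, or 0.0573 without GV replicate 3). In both, the 3 MI libraries lay above all GV libraries, with MI replicate 1 the highest. Dazl, which binds and activates maternal mRNAs, stood at 333, 314 and 356 and then at 579, 474 and 453 FPKM, and Wee2, the oocyte's inhibitory kinase of CDK1, at 341, 516 and 356 and then at 181, 239 and 293. Neither passed (adjusted p = 0.101 and 0.0645), although the groups did not overlap in either gene. No dormant gene rose without GV replicate 3 or MI replicate 1, 1 did without MI replicate 2 and 3 without GV replicate 1 or MI replicate 3.

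The cytoplasmic polyadenylation element (CPE) is the letters TTTTAT or TTTTAAT near the 3′ end, read on the transcript's strand, and acts together with the polyadenylation signal AATAAA or ATTAAA. The element may overlap the signal. The sites below are from the dormant mRNAs Plat, which fell, and Wee2 and Btg4, which did not pass. The others are from genes outside that list that rose or fell. No site is shown for Cnot6l and Dcp2, the dormant mRNAs that rose. They are read from GRCm38 with GENCODE vM21. Each starts at an element within 100 bases of the end of a representative annotated transcript, which may not be the end used in oocytes. The element taken is the last to start before the last signal within 40 bases of the end. Where no signal lies there, it is the last of all. Capitals mark the element and, where a site holds them, the letters of the signal at any distance from the end, which in Ybx1 is more than 40 bases. Plat lies at chr8:22782756-22782785 on the plus strand, Wee2 at chr6:40466768-40466797 (plus), Btg4 at chr9:51119809-51119838 (plus), Ybx1 at chr4:119278039-119278068 (minus), Suv39h2 at chr2:3455818-3455847 (minus), Srrm1 at chr4:135321099-135321128 (minus), Nlrp4f at chr13:65177117-65177145 (minus), Psmb1 at chr17:15475021-15475046 (minus) and Tor1a at chr2:30960627-30960650 (minus).
Plat: TTTTAATctattttagtttttactttgtta
Wee2: TTTTAATccagatcattgtaAATAAAgatt
Btg4: TTTTATgtctttttaaaagtttgatttaca
Ybx1: TTTTAATttgtAATAAAgtttacaacttga
Suv39h2: TTTTAATaacagAATAAAcaccatatgtaa
Srrm1: TTTTATgccaaaaaaaaaatctctttttta
Nlrp4f: TTTTATATTAAAgaatagtagtcatttcc
Psmb1: TTTTAATAAActtctgttctgatttc
Tor1a: TTTTAATactataagaagctttca

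Such an element lay within 100 bases of the end in 11 of the 30 dormant genes (36.7%) and in 1505 of 7359 tested coding genes with a 3′ UTR (20.5%). It lay there in 147 of 536 rises (27.4%), in 31 of 196 falls (15.8%) and in 20% of genes not called. Among genes with a polyadenylation signal within 40 bases of the end the shares were 28.3%, 13.4% and 21.3%, and with the calls of median-of-ratios scaling 24.0% for rises and 13.5% for falls. The UTRs differed in composition too, with a median GC content of 40.6% in rises, 45.1% in falls and 42.8% overall. Among UTRs at or under that overall median the shares were 29.0% in rises, 19.7% in falls and 24.6% in genes not called, and above it 24.7%, 13.3% and 15.6%. These are descriptions of letters in a window, with no test.

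Genes whose products remove tails and caps gave a few rises and no fall as deposited, where 7.07% of all genes rose and 3.32% fell. Of 20 deadenylation genes 3 rose and none fell (median 0.61, median exon length 6397 bases against 3596 for all genes). Besides Cnot6l these were Cnot6, its close relative (1.5, 0.858 and 0.649 to 3.92, 2.80 and 1.94 FPKM, log2 0.95, adjusted p = 0.0405, or 0.183 without MI replicate 1), and Cnot3, a scaffold subunit (log2 0.90, adjusted p = 0.0493, or 0.242 without MI replicate 1). Cnot6 reached 1 FPKM in GV replicate 1 alone of the GV libraries, so it met the level filter only through its MI values. The deadenylation count was 0 without GV replicate 3, MI replicate 1 or MI replicate 2, 1 without GV replicate 2 and 9 without MI replicate 3. Cnot7, another catalytic subunit, stood at 58.4, 59.4 and 73.0 FPKM at GV and 69.0, 59.3 and 61.8 at MI, with a log2 change of 0 to 2 decimals (adjusted p = 0.999). Of 30 decapping and decay genes 3 rose and none fell (median 0.38; 0 rises without GV replicate 3 or MI replicate 1, 1 without GV replicate 2 or MI replicate 2 and 5 without MI replicate 3). Besides Dcp2 these were Upf1, the helicase of nonsense-mediated decay (log2 1.07, adjusted p = 0.0354, or 0.180 without MI replicate 1), and its cofactor Upf3b (log2 0.97, adjusted p = 0.0331, or 0.127 without MI replicate 1). With median-of-ratios scaling 1 deadenylation gene rose, and 1 decay gene rose and 1 fell. Dcp1a, the activator of Dcp2, stood at 69.5, 67.4 and 52.3 and then at 96.7, 91.7 and 99.8 FPKM, a separation that did not pass (log2 0.61, adjusted p = 0.0859).

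Among 20 RNA-binding proteins of mRNA storage, 4 rose and 1 fell, beside 7.07% and 3.32% of all genes (median 0.28). Lsm14b, the gene deleted in the KO mice, was low and rose: 2.57, 2.28 and 2.04 FPKM at GV, then 11.2, 4.99 and 5.01 (log2 1.21, SE 0.30, adjusted p = 0.0284, or 0.147 without MI replicate 1). MI replicate 1 was well above the other MI libraries, and all 3 lay above GV. In the 9 KO libraries Lsm14b was at most 0.234 FPKM. Ybx1, a cold-shock protein that packages mRNA, stood at 22.7, 9.52 and 25.6 and then at 84.7, 55.9 and 39.4 FPKM (log2 1.63, SE 0.35, adjusted p = 0.0159, or 0.0627 without MI replicate 2). Its germ cell relative Ybx2, a main packaging protein of the oocyte, stood at 16.2 ± 3.90 and 16.4 ± 1.71 FPKM (SD, n = 3; log2 0.04, adjusted p = 0.928). Pum2, a Pumilio repressor, rose by 1.41 (adjusted p = 0.0244, or 0.105 without GV replicate 3), and Lsm14a, the paralog of Lsm14b, by 1.00 (adjusted p = 0.0316, or at most 0.111). Zar1l fell from 260.0, 201 and 259 to 81.3, 127 and 92.0 FPKM (log2 -1.27, SE 0.25, adjusted p = 0.0108, or 0.0572 without GV replicate 3), while its relative Zar1, needed for storage of maternal mRNA, had overlapping values of 125 to 176 FPKM at GV and 120.0 to 222 at MI. The 4 rises were 1 without GV replicate 3, MI replicate 1 or MI replicate 2 and 2 without GV replicate 2, and 3 with median-of-ratios scaling.

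Of 28 genes of cytoplasmic polyadenylation and poly(A) binding, 5 rose and 1 fell, beside 7.07% and 3.32% of all genes (median 0.21, and 2 rises and 2 falls with median-of-ratios scaling). The rises were Cpeb4 and Cpeb3, which bind the CPE, the poly(A) polymerase Tent4b, and the regulators of poly(A)-binding protein Paip1 and Paip2b. For Cpeb3, Tent4b, Paip1 and Paip2b the highest adjusted p over the omissions was 0.217, 0.154, 0.182 and 0.132; Cpeb3, Paip1 and Paip2b, like Lsm14a and Smc3 elsewhere, are named to complete a count, after their values were seen. Cpeb4 stood at 4.52, 2.73 and 2.21 and then at 14.0, 9.73 and 6.56 FPKM (log2 1.40, SE 0.31, adjusted p = 0.0186, or 0.0846 without GV replicate 3). Cpeb1, the CPE-binding protein of the GV oocyte, stood at 197, 221 and 126 and then at 126, 132 and 103 FPKM, which did not pass (log2 -0.55, adjusted p = 0.153). The member that fell was Cpsf4l, described above. No rise remained without GV replicate 3, MI replicate 1 or MI replicate 2, and 1 did without GV replicate 2.

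The CDK1 and MAPK lists gave 2 rises each and no fall as deposited. Of 28 genes around CDK1 and cyclins 2 rose and none fell, beside 7.07% and 3.32% of all genes (median 0.12, or -0.14 with median-of-ratios scaling). They were Cdkn1b, the CDK inhibitor p27 (0.810, 0.670 and 0.695 to 3.61, 2.17 and 1.81 FPKM, log2 1.00, adjusted p = 0.0264, or 0.136 without MI replicate 1), and Ppp1cc, a catalytic subunit of protein phosphatase 1 (log2 0.95, adjusted p = 0.0371, or 0.157 without MI replicate 1). Cdkn1b was under 1 FPKM in every GV library, so it met the level filter only through its MI values. Ppp1cc was low too, with a mean log2(FPKM + 1) of 1.235 over the 6 libraries. Cdk1 itself stood at 4.76 ± 1.10 and 3.84 ± 0.937 FPKM, Ccnb2 at 24.8 ± 3.61 and 21.1 ± 1.29, and Cdc25b, the phosphatase that activates CDK1, at 2.44 ± 0.761 and 3.65 ± 1.09 (SD, n = 3), none of which passed. Ccnb3, a cyclin of the first meiotic division, had separate values of 7.50 to 10.7 and 13.2 to 15.1 FPKM with an adjusted p of 0.146. In the MOS and MAPK list 2 of 11 rose (median 0.49): Mapk8, the stress kinase JNK1, from 4.72, 2.77 and 2.31 to 24.6, 12.5 and 5.95 FPKM (log2 1.69, SE 0.39, adjusted p = 0.0201, or 0.0934 without GV replicate 3), and Dusp7, a MAPK phosphatase (log2 1.07, adjusted p = 0.0499, or 0.191 without MI replicate 1). Mapk3, the ERK1 kinase, stood at 148 ± 50.7 and 145 ± 21.1 FPKM (SD, n = 3).

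The prophase arrest is held by cAMP, and 3 of 12 genes of that pathway rose with none falling, beside 7.07% and 3.32% of all genes (median 0.53, and 1 rise with median-of-ratios scaling). They were Akap1, an anchor of protein kinase A (log2 1.2, adjusted p = 0.0259, or 0.106 without GV replicate 3), Gnai2, an inhibitory G protein (log2 1.13, adjusted p = 0.0356, or 0.180 without MI replicate 1), and Adcy9, an adenylyl cyclase (log2 1.05, adjusted p = 0.0325, or 0.159 without MI replicate 1). Gpr3, the receptor that keeps cAMP high, had overlapping values of 5.35 to 9.61 and 6.83 to 12.1 FPKM, and Pde3a, the phosphodiesterase that lowers cAMP at release, stood at 8.42, 6.43 and 4.52 and then at 16.5, 11.4 and 10 without passing (log2 0.88, adjusted p = 0.0572). None of 20 genes of the anaphase-promoting complex passed by limma as deposited (median 0.44, 7 at an unadjusted p under 0.05, 2 rises with voom), with Pttg1, securin, at 981 ± 117 and 1363 ± 306 FPKM and Cdc20, the activator, at 53.5 ± 6.39 and 59.7 ± 13.5. None of 23 checkpoint genes passed by limma (median 0.17, 6 at an unadjusted p under 0.05, 0 with voom, 1 fall with median-of-ratios scaling). Aurka, a spindle kinase, stood at 237, 282 and 211 and then at 116, 160.0 and 207 FPKM (log2 -0.62, adjusted p = 0.113). Without MI replicate 1, MI replicate 2 or GV replicate 3, no member of the CDK1, MAPK or cAMP lists rose, and without GV replicate 2 none of the CDK1 or cAMP lists. Without MI replicate 3, 5 cAMP genes rose.

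Chromosome and cytoskeleton genes gave both rises and falls, where 7.07% of all genes rose and 3.32% fell. Of 21 cohesin and condensin genes 4 rose and none fell (median 0.54, or 0.27 and 2 rises with median-of-ratios scaling; median exon length 5541 bases). Nipbl, the cohesin loader, went from 7.32, 5.98 and 4.23 to 31.0, 16.6 and 11.8 FPKM (log2 1.52, SE 0.32, adjusted p = 0.0155, or 0.0828 without GV replicate 3). Rad21 and Smc3, subunits of the ring, and Esco1, an acetyltransferase of cohesin, rose by 1.24, 0.95 and 0.88 (highest adjusted p over the omissions 0.118, 0.157 and 0.101), while the meiotic subunit Smc1b stood at 2.78 ± 0.365 and 4.53 ± 0.879 FPKM without passing (adjusted p = 0.164). The cohesin count was 0 without GV replicate 3, MI replicate 1 or MI replicate 2, 1 without GV replicate 2, 2 without GV replicate 1 and 8 without MI replicate 3.

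Of 35 kinetochore genes 1 rose, Cenpf (log2 0.87, adjusted p = 0.0485, or 0.202 without MI replicate 1), whereas with median-of-ratios scaling none rose and 3 fell (median -0.02 as deposited and -0.29). Of 40 spindle genes 3 rose and 2 fell, beside 7.07% and 3.32% of all genes (0 and 2 with median-of-ratios scaling). The spindle genes that fell were Tacc3, which stabilises spindle microtubules (368, 481 and 371 to 143, 189 and 272 FPKM, log2 -1.05, adjusted p = 0.0288, or 0.106 without MI replicate 1), and Kif22, a kinesin that pushes chromosome arms (83.7, 90.8 and 87.6 to 33.3, 48.1 and 50.0 FPKM, log2 -1.0, adjusted p = 0.0237, or 0.0875 without MI replicate 1). Those that rose included Pcnt, pericentrin of the organising centres (31.1, 24.7 and 15.1 to 54.5, 32.3 and 51.8 FPKM, log2 0.96, adjusted p = 0.0485, or 0.171 without GV replicate 3). Both falls were lost without GV replicate 2, GV replicate 3 or MI replicate 1, 1 was lost without MI replicate 2, and no rise remained without GV replicate 2, GV replicate 3, MI replicate 1 or MI replicate 2. Of 18 tubulins and cofactors 4 fell and none rose (median -0.22, or -0.52 and 5 falls with median-of-ratios scaling). Tubb4b went from 321, 337 and 266 to 72.5, 143 and 136 FPKM (log2 -1.44, SE 0.27, adjusted p = 0.00989), a call that held without each library. Tuba4a, Tuba3a and Tubb6 fell by 1.39, 0.99 and 0.98 (highest adjusted p over the omissions 0.0670, 0.129 and 0.147), and since tubulin paralogs are alike in sequence, the split of reads between them is uncertain. The tubulin count was 1 without GV replicate 3 and 2 without GV replicate 2, MI replicate 1 or MI replicate 2.

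Of 32 actin genes 3 rose and none fell, beside 7.07% and 3.32% of all genes (median 0.27, and 2 rises and 1 fall with median-of-ratios scaling). Fmn2, the formin that moves the first spindle to the cortex, went from 16.9, 9.03 and 8.80 to 48.3, 27.9 and 21 FPKM (log2 1.39, SE 0.32, adjusted p = 0.0211, or 0.0934 without GV replicate 3). Spire1, its partner in nucleation, had overlapping values of 39.1 to 65.0 and 36.0 to 50.2 FPKM. Wasl, an activator of the ARP2/3 complex, rose from 23.8, 17 and 14.9 to 61.0, 43.8 and 38.4 FPKM (log2 1.32, SE 0.26, adjusted p = 0.0123, or 0.0668 without GV replicate 3), and Wasf1, a related activator, by 1.05 with overlapping groups (adjusted p = 0.0470, or 0.207 without MI replicate 1). The actin count was 0 without GV replicate 3, 1 without MI replicate 1 or MI replicate 2, 2 without GV replicate 2 and 7 without MI replicate 3.

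The zona pellucida and egg surface list had the lowest median of all, -0.43 (-0.73 with median-of-ratios scaling). Only 1 of its 12 members passed, Plat, which fell, where 3.32% of all genes did. The count of falls was 0 without any library other than MI replicate 3, 5 without MI replicate 3 and 4 with voom. Zp3, the most abundant zona protein mRNA, stood at 7687, 8916 and 6390.0 FPKM at GV and at 2072, 4108 and 5728 at MI (log2 -1.06, SE 0.34, adjusted p = 0.0545). Zp2 stood at 2655, 3576 and 2271 and then at 927, 1627 and 2058 FPKM (log2 -0.93, adjusted p = 0.0596), and Zp1 at 1295, 2056 and 749 and then at 312, 729 and 795 (log2 -1.15, adjusted p = 0.0589). Zp2 and Zp3 were separate between the groups, with MI replicate 3 next to GV, and Zp1 overlapped. Their MII means, beside MI means of 3969 ± 1832, 1538 ± 571 and 612 ± 262 FPKM for Zp3, Zp2 and Zp1, were 158 ± 36.9, 50.3 ± 1.43 and 48.3 ± 18.4 (SD, n = 3).

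Of 26 oocyte growth and germ cell factors 3 fell and 1 rose, beside 3.32% and 7.07% of all genes (median 0.02, and 4 falls and 0 rises with median-of-ratios scaling). Bmp15, a growth factor sent to the granulosa cells, went from 2045, 2469 and 2105 to 1121, 1274 and 1433 FPKM (log2 -0.79, SE 0.24, adjusted p = 0.0485, or 0.169 without MI replicate 1). Its partner Gdf9 stood at 4495, 5088 and 3521 and then at 1833, 3031 and 3296 FPKM, which was separate but did not pass (log2 -0.71, adjusted p = 0.104). Fgf8, a further signal to cumulus cells, fell from 106, 84.8 and 92.0 to 25.3, 62.0 and 15.4 FPKM (log2 -1.66, SE 0.36, adjusted p = 0.0186, or 0.0817 without GV replicate 3). Gtsf1, a factor of transposon silencing, fell from 616, 518 and 582 to 168, 292 and 245 FPKM (log2 -1.31, SE 0.25, adjusted p = 0.0104, or 0.0514 without GV replicate 3). No fall of this list remained without GV replicate 3, 2 did without GV replicate 1, GV replicate 2, MI replicate 1 or MI replicate 2, and 5 without MI replicate 3. Of 37 maternal effect genes 2 rose and 2 fell (0 and 2 with median-of-ratios scaling), the falls being Nlrp2 (log2 -1.22, adjusted p = 0.0237, or 0.0797 without MI replicate 1) and Nlrp4f (log2 -0.93, adjusted p = 0.0336, or 0.119 without MI replicate 1). The maternal effect falls were lost without any library other than GV replicate 1 and MI replicate 3. Of the subcortical maternal complex, Ooep with 3011 ± 496 and 3338 ± 644 FPKM and Nlrp5 with 563 ± 165 and 360.0 ± 125 (SD, n = 3) had overlapping groups.

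Of 72 ribosomal protein genes 17 fell and 1 rose, beside 3.32% and 7.07% of all genes, with a median of -0.28 (25 and 0, median -0.54, with median-of-ratios scaling, where 6.59% of all genes fell). Rpl4, of the large subunit, went from 416, 345 and 356 to 125, 200 and 141 FPKM (log2 -1.28, SE 0.24, adjusted p = 0.0100). Rpl19, also of the large subunit, went from 26.3, 16.8 and 27.6 to 7.02, 7.54 and 2.17 FPKM (log2 -2.0, SE 0.35, adjusted p = 0.00677, or 0.0513 without GV replicate 3). The groups were separate in both genes, and the Rpl4 call held without each library. Other members did not pass: Rpl32 stood at 201 ± 35.5 and 207 ± 47.6 FPKM (SD, n = 3), and Rps13 at 86.2, 70.4 and 87.2 and then 62.6, 64.9 and 68.1, with adjusted p = 0.946 and 0.363. Per library, the median member lay 0.20 above, 0.28 below and 0.07 above the GV mean in GV replicates 1 to 3, and 0.21, 0.12 and 0.59 below it in MI replicates 1 to 3. The median member of this list in GV replicate 2 was thus lower than in MI replicates 1 and 2. The falls numbered 2 without GV replicate 3, 7 without MI replicate 1, 9 without GV replicate 1 and 12 to 18 without any of the others. Ribosomal protein genes have many processed pseudogenes, between which reads may be split, and their median exon length was 1754 bases.

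Of 38 translation initiation factors 8 fell and 2 rose, beside 3.32% and 7.07% of all genes (median 0.09, and 12 falls and 0 rises with median-of-ratios scaling). Eif3l, a subunit of the factor that binds the small ribosomal subunit, went from 52.6, 61.5 and 35.5 to 8.70, 32.3 and 9.42 FPKM (log2 -1.73, SE 0.39, adjusted p = 0.0191, or 0.0573 without GV replicate 3). Eif1ax, which helps select the start codon, went from 169, 142 and 209 to 53.6, 92.7 and 67.7 FPKM (log2 -1.29, SE 0.26, adjusted p = 0.0124, or 0.0670 without GV replicate 3). Eif6, which keeps the ribosomal subunits apart, was tight in both groups, with 79.3, 70.5 and 71.3 and then 31.1, 36.1 and 36.2 FPKM (log2 -1.08, SE 0.22, adjusted p = 0.0144, or 0.0547 without GV replicate 3). Eif4e, the cap-binding protein, and Eif4a1, the helicase, did not pass (log2 -0.65 and -0.35). No initiation factor fell without GV replicate 3, 2 did without MI replicate 1 and 5 without MI replicate 3.

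Most mitochondrially encoded mRNAs rose. Of 12 mRNAs encoded in mitochondrial DNA 11 rose and none fell, beside 7.07% and 3.32% of all genes, with a median of 1.47. With median-of-ratios scaling 7 rose, beside 2.49% of all genes, and the median was 1.16. The median exon length of the 12 was 870 bases. Among the rises, mt-Nd4l was low, with a mean log2(FPKM + 1) of 1.461 over the 6 libraries. mt-Cytb, of complex III, stood at 2667, 2342 and 3993 and then at 5233, 8240.0 and 5147 FPKM (log2 1.05, SE 0.29, adjusted p = 0.0382, or 0.127 without MI replicate 2). mt-Co1, of complex IV, stood at 1236, 1559 and 1500.0 and then at 4288, 4418 and 1844 FPKM (log2 1.2, SE 0.32, adjusted p = 0.0332, or 0.123 without MI replicate 2). MI replicate 3 was the lowest MI library in both and still lay above GV. The median member lay 1.68, 1.71 and 0.74 above the GV mean in MI replicates 1 to 3, against 0.24, 0.42 and 0.07 for the median gene. Without MI replicate 2, 3 members rose, without GV replicate 3 5, without MI replicate 1 6 and without the others 8 to 11. Most mitochondrial mRNAs, though not all, carry short tails added in the organelle. Mitochondrial DNA copies in the nuclear genome can share reads with these mRNAs.

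Among 73 nuclear oxidative phosphorylation genes 9 fell and 0 rose, beside 3.32% and 7.07% of all genes (median -0.04, median exon length 1675 bases). With median-of-ratios scaling 13 of them fell and 0 rose. Atp5g1, a subunit of the ATP synthase ring, went from 16.8, 14.8 and 19.3 to 3.6, 8.33 and 2.49 FPKM (log2 -1.75, SE 0.33, adjusted p = 0.00915, or 0.0572 without GV replicate 3). Ndufa9, of complex I, went from 57.0, 53.8 and 65.8 to 14.8, 38.4 and 20.2 FPKM (log2 -1.34, SE 0.30, adjusted p = 0.0191, or 0.0862 without GV replicate 3). Both were separate between the groups, while Atp5b, the catalytic subunit, stood at 98.1 ± 3.94 and 111 ± 13 FPKM (SD, n = 3; adjusted p = 0.637). Of 66 mitochondrial ribosomal protein genes 9 fell and 0 rose (median -0.10; 16 and 0 with median-of-ratios scaling). Mrps18c went from 11.8, 6.58 and 16.1 to 1.98, 3.55 and 2.19 FPKM (log2 -1.75, SE 0.32, adjusted p = 0.00759, or 0.0513 without GV replicate 3) and Mrps22 from 12.9, 9.66 and 12.8 to 2.75, 6.04 and 2.52 (log2 -1.49, adjusted p = 0.0126, or 0.0663 without GV replicate 3). Neither list had a fall without GV replicate 3. Without MI replicate 1, 1 oxidative phosphorylation gene and 2 mitochondrial ribosomal genes fell, and without GV replicate 1, 4 and 3 did. Without MI replicate 2, 5 oxidative phosphorylation genes fell, and without MI replicate 3, 3 mitochondrial ribosomal genes did.

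The proteasome degrades ubiquitinated proteins such as cyclin B. Of 31 subunits 7 fell and none rose, beside 3.32% and 7.07% of all genes (median -0.23, or -0.52 and 8 falls with median-of-ratios scaling). Psmb1, a subunit of the core, went from 69.6, 54.0 and 50.9 to 21.9, 24.6 and 22.1 FPKM (log2 -1.30, SE 0.23, adjusted p = 0.00759). The MI libraries were almost equal here, and the call held without each library. Psma6, of the outer ring, fell by 1.24 (adjusted p = 0.0144, or 0.0670 without GV replicate 3), and Psmc2 was described above. Psma1, also of the outer ring, stood at 98.2 ± 20.1 and 114 ± 4.84 FPKM (SD, n = 3; log2 0.23, adjusted p = 0.527). The count was 2 without GV replicate 3, 3 without GV replicate 1 or MI replicate 1 and 4 without GV replicate 2. Among 36 chaperones 4 fell and 2 rose (4 and 0 with median-of-ratios scaling): Hspa8, the constitutive HSP70, went from 122, 165 and 146 to 44.2, 96.3 and 68.1 FPKM (log2 -1.10, adjusted p = 0.0288, or 0.111 without MI replicate 1), whereas Hsp90aa1 stood at 2102 ± 398 and 2647 ± 628 (adjusted p = 0.427). The prefoldin subunits Pfdn6 and Pfdn1 fell by 1.33 and 1.13 (adjusted p = 0.0186 and 0.0337, or 0.0828 without GV replicate 3 and 0.109 without GV replicate 1). No chaperone fell without GV replicate 3, 1 did without MI replicate 1 and 2 did without GV replicate 1, GV replicate 2 or MI replicate 2.

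Among nuclear functions, chromatin genes had 9 rises and 1 fall in 38, beside 7.07% and 3.32% of all genes (median 0.47, median exon length 5255 bases). With median-of-ratios scaling chromatin genes had 3 rises and 1 fall, with a median of 0.25. Suz12, a core subunit of Polycomb complex PRC2, went from 59.9, 30.1 and 31.8 to 185, 129 and 82.0 FPKM (log2 1.67, SE 0.32, adjusted p = 0.0100, or 0.0663 without GV replicate 3). Kdm7a, a histone demethylase, went from 6.52, 5.76 and 5.76 to 25.5, 21.6 and 11 FPKM (log2 1.46, SE 0.30, adjusted p = 0.0127, or 0.0612 without GV replicate 3). Suv39h2, a histone methyltransferase, and Kdm4a, a demethylase, rose by 1.17 and 0.88 (highest adjusted p over the omissions 0.12 and 0.177), whereas H1foo, the oocyte's linker histone, stood at 9235 ± 1228 and 7753 ± 1688 FPKM and Dnmt1 at 428 ± 137 and 568 ± 194 (SD, n = 3), with overlapping groups. The chromatin rises numbered 0 without GV replicate 3 or MI replicate 2, 2 without GV replicate 2 or MI replicate 1 and 12 without MI replicate 3. Spliceosome genes had 4 rises and 1 fall in 44 (0 and 3 with median-of-ratios scaling), the fall being Bud31 (1 rise without GV replicate 2 or MI replicate 2, 0 without GV replicate 3 or MI replicate 1, 9 without MI replicate 3). Of 31 nuclear pore and lamina genes 2 rose, Tpr and Pom121, and of 12 genes of calcium release and egg activation 3 rose, Atp2a2, Itpr2 and Calm3 (0 in either list with median-of-ratios scaling, and 0 in either without GV replicate 3 or MI replicate 1). Atp2a2, the calcium pump that refills the store, went from 52.6, 32.3 and 28.0 to 115, 79.1 and 65.1 FPKM (log2 1.19, SE 0.28, adjusted p = 0.0237, or 0.0997 without GV replicate 3). For Tpr, Pom121, Itpr2 and Calm3 the highest adjusted p over the omissions was 0.133, 0.180, 0.106 and 0.196. Calm3 was low, with a mean log2(FPKM + 1) of 1.328 over the 6 libraries. Of 34 replication genes, which act after fertilization, 1 rose, Pola1 (log2 0.88, adjusted p = 0.0469, or 0.202 without MI replicate 1).

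**Figure D3:**
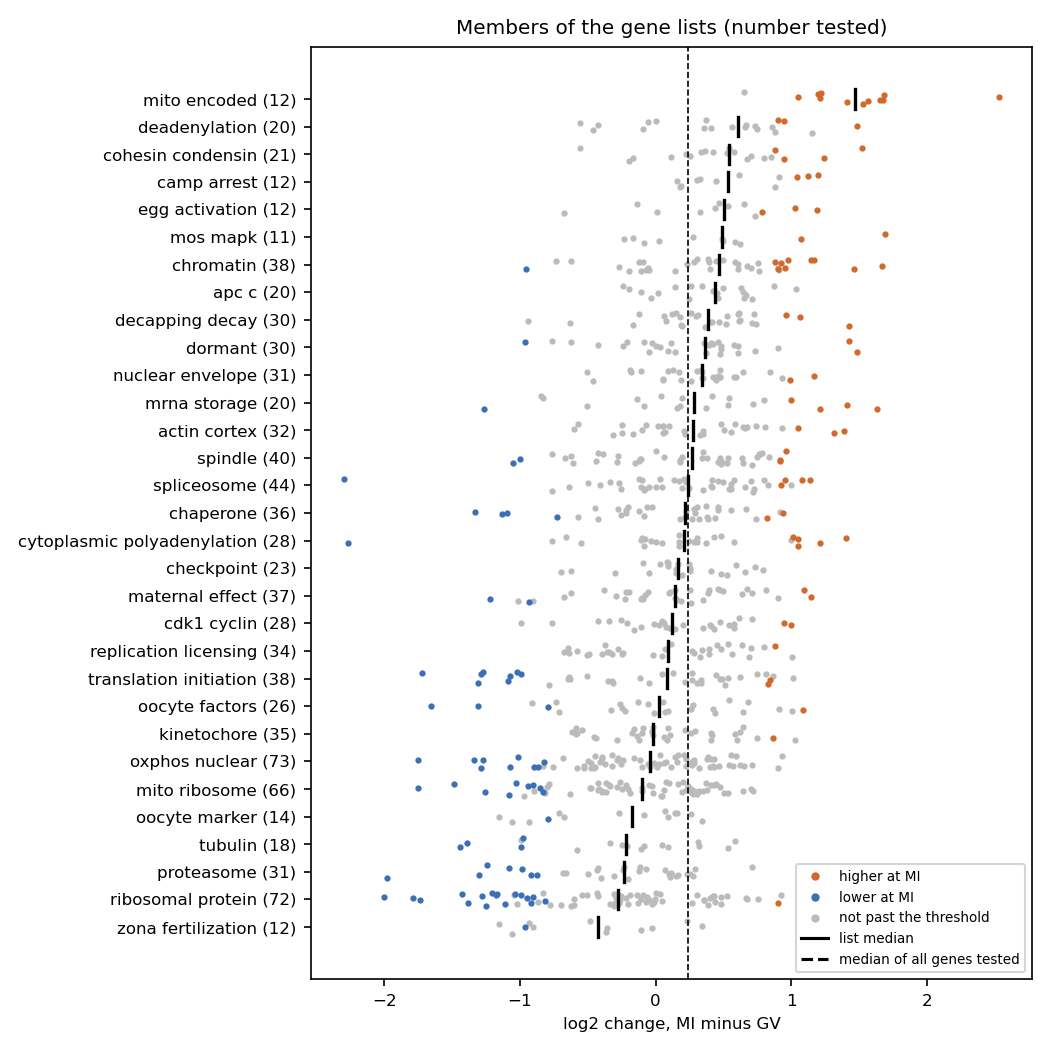
Change from GV to MI (log2, MI minus GV) of each tested member of the gene lists, 1 point per gene, ordered by the list median (short black line), with the number tested in brackets. Mitochondrially encoded mRNAs stand at the top with a median of 1.47. The medians of ribosomal proteins, proteasome and tubulins lie left of the dashed line, the median of 0.24 over all genes. So do those of other lists, the lowest being zona and fertilization at -0.43.

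Exon length differed between genes that rose and genes that fell. The median length was 5771 bases in rises, 1822 in falls and 3557 in genes not called, and in coding genes the median 3′ UTR was 1408, 284 and 892 bases. In the shortest decile of genes (median 489 bases) 53 rose and 60 fell, with a median change of 0.08, and in the longest decile (median 11444 bases) 143 rose and 7 fell, with a median of 0.51. With median-of-ratios scaling these medians were -0.14 and 0.30, with coding genes alone 0.16 and 0.52, and on recovered reads 0.08 and 0.70. Over the fits without 1 library they were 0.01 to 0.21 and 0.41 to 0.62. Relative to the GV mean, the longest decile lay at 0.68, 0.58 and 0.29 in MI replicates 1 to 3 and at 0.13, 0.07 and -0.23 in GV replicates 1 to 3. The shortest decile lay at 0.16, 0.25 and -0.10 and at 0.05, -0.21 and 0.17. GV replicate 3, whose omission cost the most calls, thus had the lowest level of long genes. The part of length in the changes of single genes was not tested. Of 26 tested microRNA genes 12 fell and 1 rose, beside 3.32% and 7.07% of all genes. Oligo(dT)-primed reads do not measure the mature microRNA.

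**Figure D4:**
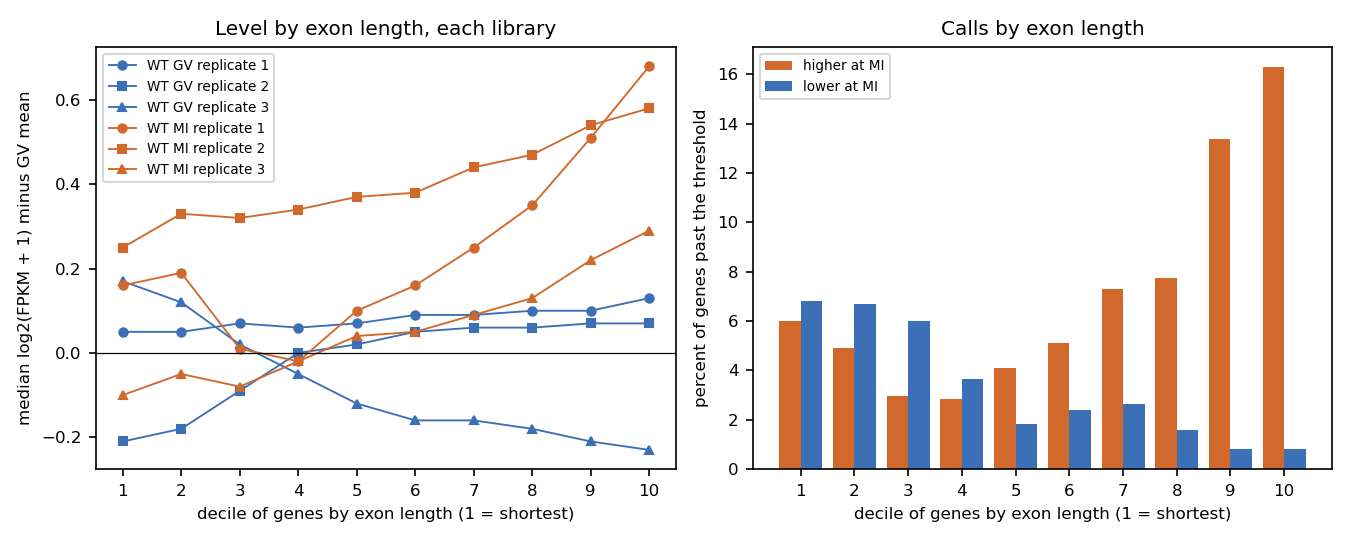
Left, median log2(FPKM + 1) of each library minus the GV mean in deciles of genes by exon length, 1 line per library; right, percent of genes called higher (orange) or lower (blue) in each decile. The MI lines end at 0.68, 0.58 and 0.29 in the longest decile, their highest points, and the percent of rises reaches 16.3 there, where 0.796% fell.

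The KO libraries allow the same step to be compared with oocytes that share no library with it. In KO, 43 of 8948 genes rose from GV to MI (0.481%) and 435 fell (4.86%). Of the 278 WT falls tested there, 155 fell in KO too, which is 55.8% of them and 37.4% of the 414 KO falls tested in WT, and the median change of the 278 was -1.19 in WT and -1.51 in KO. Of the 602 WT rises tested in KO 5 rose there, 0.831% of them and 12.2% of 41 KO rises, with medians of 1.05 in WT and 0.44 in KO. Passing or not, 526 of the 602 rises (87.4%) and 269 of the 278 falls (96.8%) had the same sign in KO. Both sets were chosen by their WT change, which makes their WT medians large in size. These medians therefore do not compare the genotypes. None of the WT calls passed in the opposite direction. KO GV replicates 2 and 3 stood apart from their group, with deviations of 0.541 and 0.494 (SD, log2) against 0.218 to 0.333 in the other KO libraries and 0.184 to 0.305 in WT. Without KO GV replicate 2, 189 WT falls and 29 WT rises passed in KO too (68.0% and 4.82%), and without KO GV replicate 3, 166 and 8 (59.7% and 1.33%). Without KO GV replicate 1 or any KO MI replicate, 66 to 83 falls (23.7% to 29.9%) and 0 or 1 rises did, while the KO median of the WT falls stayed between -1.55 and -1.44 over all 6 omissions and that of the WT rises between 0.07 and 0.70. Over the 8167 genes tested in both, the median was 0.25 in WT and -0.02 in KO. Mitochondrially encoded mRNAs had a KO median of 0.77 with none passing, and ribosomal proteins fell in 18 of 71 with a median of -0.92.

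Differences between the genotypes in this step were rarely large enough to pass. A test of the difference itself, over 12 libraries and 9936 genes, called 1 gene (0.0101%, with 926 at an unadjusted p under 0.05), the predicted microRNA gene Gm22825. Bud31 fell by 2.88 in KO and Cpsf4l by 2.73 (adjusted p for the genotype difference 0.638 and 0.724). Tor1a, among the 12 falls above, had a KO change of -0.10, but the difference did not pass (adjusted p = 0.360). Plat fell in WT and had a KO change of 1.03, with an adjusted p of 0.390 for the difference. Eif6 came nearest among the genes named here, with changes of -1.08 in WT and -3.09 in KO (adjusted p = 0.0691). A p that misses the threshold does not show that the genotypes act alike.

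**Figure D5:**
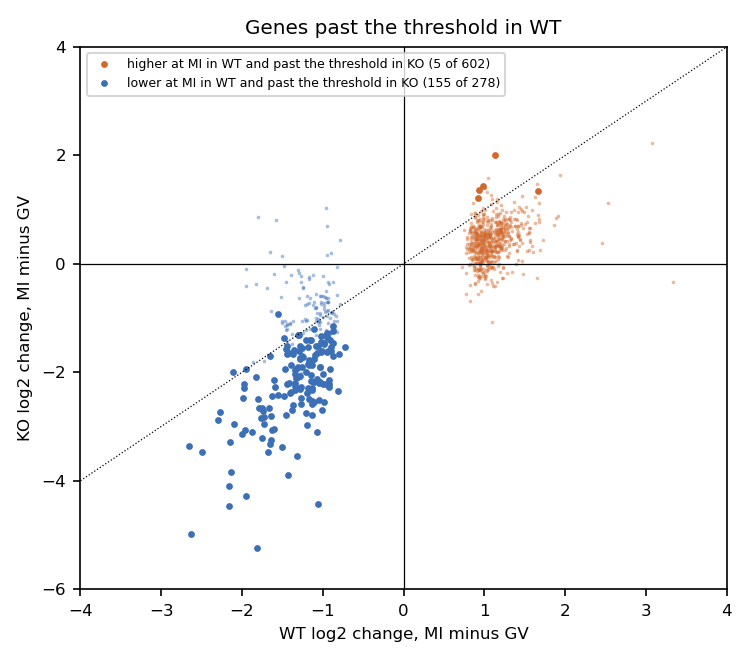
Log2 change from GV to MI in KO (vertical) against WT (horizontal) for the 880 genes that passed in WT and were tested in both, with full colour where the gene passed in KO too. Falls (blue) lie around and below the dotted line of equal change, and rises (orange) mostly below it. The genes were chosen by their WT change, so their place beside that line does not compare the genotypes.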

How the data were processed

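RNA of 15 oocytes per library was primed with oligo(dT) and amplified by Smart-seq2, per the labels' protocols. Values are FPKM per gene, computed by the authors and deposited as a table of 27874 genes and 18 libraries. DESeq2 1.38.3 and mm10 stand in the submitters' processing notes, where no step is assigned to either; for the aligner, counter, annotation and strand the entry is not given in the sources used here. FPKM times exon length (GENCODE vM21, 27829 genes matched) gave whole reads within 0.05 for 93.0% to 93.3% of values. Since PCR copies carry no molecular identifiers, precision read from depth is that of counting alone.

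The test was limma 3.58.1 (R 4.3.3) on log2(FPKM + 1) with a variance trend, two-sided, over the 3 GV and 3 MI libraries of WT, for genes with 1 FPKM in 3 or more of them, with Benjamini-Hochberg adjustment and a threshold of 0.05. This scale understates changes of low genes. The genotype difference was fitted over 12 libraries. In simulated data of 8798 genes, 200 were given a change, all with a GV mean log2(FPKM + 1) above 2. Changes of 1 and 2 on the log2 scale were recovered in 31% and 88% of the genes given them, and 5.6% of calls were false. These shares do not cover genes of lower level. The simulation drew noise for each gene on its own, without shifts shared by the genes of a library or effects of scaling. Its shares therefore need not hold for the calls reported here.

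The members and the 34 gene lists were chosen with earlier results of these data known. Named genes are up to 12 rises and 12 falls by log2 change that passed, had a mean of 5 FPKM, separate groups, a call kept without any 1 library, under 20% of exon bases shared and no predicted-gene symbol (10 rises and 22 falls qualified); key members of each list; and up to 3 further members with the smallest p. Lists are described by counts and medians, with no set test. Alternatives were other pseudocounts (0.1 and 5), filters (none and 5 FPKM), scaling by TPM, quantiles or median of ratios, voom on recovered reads, fits with all 9 WT or all 18 libraries, the replicate block, a 2-fold minimum and leaving out each library; those on exon length, the CPE and KO libraries were added after seeing the data. Python 3.11.15, pandas 2.3.3 and matplotlib 3.10.9 were used for tables and figures.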

Additional observations from a re-analysis of the deposited data

Results flagged for a closer look

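In Gm22825, a predicted microRNA gene with a 101-base exon on chromosome 8, the change from GV to MI differed between the genotypes by -3.42 on the log2 scale (KO minus WT, limma adjusted p = 0.00343, and at most 0.0276 without any 1 library). It stood at 32.6, 30.2 and 36.2 FPKM in WT GV replicates 1 to 3, at 5.87, 9.79 and 11 in WT MI replicates 1 to 3, at 37.3, 48.3 and 44.6 in KO GV replicates 1 to 3, and at 0, 0 and 0.599 in KO MI replicates 1 to 3.

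Plat moved in opposite directions without overlap in both genotypes, lower at MI in WT (582 ± 80.8 to 312 ± 118 FPKM) and higher in KO (91.1 ± 34.5 to 185 ± 70.6; SD, n = 3). The difference between the changes was 1.99 on the log2 scale and did not pass the test (adjusted p = 0.390).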

How the results depend on the processing

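Rises and falls from GV to MI, 622 and 292 (914 in all), numbered 219 and 580 with median-of-ratios scaling, 236 and 441 with quantile scaling, 371 and 212 (583) with a 2-fold minimum, 351 and 243 (594) with all 18 libraries, 1261 and 433 (1694) with all 9 WT libraries, and 0 and 0 by limma with no level filter, where 24321 genes were tested and 3457 had an unadjusted p under 0.05. Leaving out 1 library gave 82 to 1890 calls, 27 to 1591 rises and 55 to 299 falls, lowest without WT GV replicate 3 and highest without WT MI replicate 3. TPM scaling (745 and 270), voom on recovered reads (803 and 296), pseudocounts of 0.1 (533 and 260) and 5 (538 and 275) and a filter of 5 FPKM (517 and 278) stayed within 1.5 times of each count. The median change of all genes was 0.24 as deposited, -0.01 with median-of-ratios and 0.03 with quantile scaling. The 1 gene whose change differed between genotypes became 4 with TPM scaling, a pseudocount of 0.1 or voom, 7 with all 18 libraries, 3 with a filter of 5 FPKM, 2 with no filter, 0 with median-of-ratios scaling or a pseudocount of 5, and 1 to 23 without 1 library (23 without KO GV replicate 3). With the replicate number as a block 780 genes rose and 257 fell, 1037 in all, and 1 gene differed between genotypes. Deviations of same-numbered libraries had correlations of 0.273, 0.043 and -0.123, and GV replicate 2 correlated best with MI replicate 3 (0.251). With 3 libraries per group these values cannot decide whether the numbers pair the libraries. Of the 221 named genes none reversed a call, 99 passed, 60 of these held under TPM, quantile and median-of-ratios scaling and voom, and 25 held under every alternative but no filter, which ended them all. Causes were not tested. Low genes are limited by depth, since 1 read in 1 kb of exon is 0.0593 to 0.0703 FPKM.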
